A study of Mus musculus with 9 samples.

Results

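Serpins are protease inhibitors that act once: the target protease cuts an exposed loop of the serpin and is trapped in a covalent complex. Many serpins of clade B lack a secretion signal and work inside the cell, and cytotoxic lymphocytes use them against the proteases of their own granules and lysosomes. The 5 mouse genes of this family here were followed over every array of the series, each through its single probe set. Serpina3g (Spi2A, probe set 1424923_at) encodes an intracellular inhibitor of cysteine cathepsins and, in mice, a target of NF-kappaB. Serpinb9 (Spi6, 1422601_at) encodes an inhibitor of granzyme B, Serpinb6b (1422804_at) an inhibitor of granzyme A, and Serpinb6a (Spi3, 1450138_a_at) a broad inhibitor that also blocks cathepsin G. Serpine2 (protease nexin-1, 1416666_at) encodes a secreted inhibitor of thrombin and plasminogen activators. The members were chosen by gene symbol, with earlier results of these data known. Each of the 5 symbols stood alone on 1 of the 22626 probe sets that are no controls. The array names 13152 genes singly, among them 33 other serpin genes.

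The 9 arrays covered 3 populations of CD8+ T cells, 3 arrays each, in a mouse model of graft-versus-host disease. Postmitotic cells (CD44-lo/CD62L-hi) and effector memory cells (CD44-hi/CD62L-lo) were recovered on day 14 from male B6/SJL recipients that had received 10 Gy and a graft. The graft was naive CD8+ T cells of female C3H.SW donors, given with T cell-depleted bone marrow. Each preparation pooled 4 recipients. Naive cells (CD44-lo/CD62L-hi) came from normal female C3H.SW mice, with 2 mice pooled per preparation, so that transplantation, irradiation and host differ from naive to the other populations together with the cell state. Each array received material from 600 ng of RNA after amplification in 2 rounds.

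Values are the deposited log2 signals. The authors added an offset before taking the log, so a probe set with no signal lies at log2 6.64, and fold changes of dim genes are understated. Quantile normalization gave the arrays nearly 1 median, about 7.90, and removed any shift shared by all genes. Arrays of a group correlated at 0.972 to 0.985 over all probe sets. The T cell markers were bright on all arrays, with Cd3e between 12.25 and 13.07 and Lck, a kinase of T cell receptor signalling, between 14.18 and 14.62. Postmitotic replicate 3 and effector memory replicate 3 carried RNA of Y-linked genes, with Eif2s3y at 11.47 and 9.50, against at most 7.02 on any other array. Donors were female and recipients male, and whether these preparations held recipient cells was not tested. For the serpin members, the differences between postmitotic and naive cells are therefore also given without these 2 arrays. Postmitotic results on other named genes and on the gene lists are given only with all arrays included.

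The start regions of 3 of the genes are shown first, because Serpina3g and Serpinb6b were the pair called in both recovered populations and Serpinb9 is the next gene after Serpinb6b on chromosome 13. The sequences are those of RefSeq (GRCm38.p6, strain C57BL/6J, not a strain of the study), 5′ to 3′ on the strand of the gene, from 250 bases before to 50 bases after the start site. Capitals mark matches, on either strand, to 6 motifs: kappaB (by its consensus), GAS (TTCNNNGAA), ISRE (by its consensus), AP-1 (TGANTCA), Runx (TGTGGT) and T-box (GGTGTGA).
Serpina3g, chr12:104235897-104236196, plus strand: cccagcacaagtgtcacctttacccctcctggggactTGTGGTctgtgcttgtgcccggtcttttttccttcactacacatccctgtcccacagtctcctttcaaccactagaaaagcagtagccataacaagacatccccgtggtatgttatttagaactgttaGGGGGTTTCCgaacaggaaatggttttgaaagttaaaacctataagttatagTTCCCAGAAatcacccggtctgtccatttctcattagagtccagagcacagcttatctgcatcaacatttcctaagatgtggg
Serpinb9, chr13:33004291-33004590, plus strand: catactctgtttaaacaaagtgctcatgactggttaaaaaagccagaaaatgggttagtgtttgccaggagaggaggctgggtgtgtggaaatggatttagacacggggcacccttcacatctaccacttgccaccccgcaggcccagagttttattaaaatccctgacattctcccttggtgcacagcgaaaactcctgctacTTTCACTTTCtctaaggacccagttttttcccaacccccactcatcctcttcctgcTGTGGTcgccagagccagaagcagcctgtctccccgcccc
Serpinb6b, chr13:32965011-32965310, plus strand: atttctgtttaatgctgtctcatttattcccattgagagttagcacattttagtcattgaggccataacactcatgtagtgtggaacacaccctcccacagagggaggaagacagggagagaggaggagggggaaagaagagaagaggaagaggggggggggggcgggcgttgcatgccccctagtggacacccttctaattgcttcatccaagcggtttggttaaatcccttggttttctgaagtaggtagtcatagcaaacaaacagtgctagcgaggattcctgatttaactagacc
In the Serpina3g window a kappaB match lay at -85 to -76, a GAS match at -33 to -25 and a Runx match at -213 to -208, counted from the start site. Serpinb9 held an ISRE match at -46 to -37 and a Runx match at 11 to 16, and Serpinb6b held none of the 6. Of 32851 promoters of the same length, 4.51% held a kappaB match, 8.3% a GAS match, 3.44% an ISRE match, 7.81% an AP-1 match, 16.8% a Runx match and 3.98% a T-box match. In 1 of the 2 windows of Serpinb6a an ISRE match at -84 to -75 overlapped a GAS match at -77 to -69. A further GAS match lay at 21 to 29 there, and the window of Serpine2 held none of the 6 motifs. These are matches of letters in the reference, and binding was not measured.

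Effector memory cells were compared with naive cells to see which serpins are higher in the recovered T cells of activated phenotype. All 5 serpins rose in effector memory cells (limma, adjusted p between 1.29e-06 and 8.54e-05), by log2 6.61 for Serpina3g, 5.68 for Serpine2, 3.92 for Serpinb6b, 2.43 for Serpinb9 and 1.91 for Serpinb6a. Of all probe sets tested, 12.4% were called higher in this comparison, 13.6% lower and 26% in either direction. By size of the rise, Serpina3g ranked 7 among the 22626 probe sets, Serpinb6b 78, Serpinb9 267 and Serpinb6a 429.

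Serpina3g lay at log2 14.31, 14.40 and 14.37 on the effector memory arrays, against 7.75, 7.26 and 8.23 on the naive arrays. All naive values were above no signal, and the groups were far apart. The means were 14.36 ± 0.05 in effector memory and 7.75 ± 0.49 in naive cells (SD, n = 3 each), a 97.7-fold difference on the deposited scale. The SE of the log2 difference was 0.245, and the difference was log2 7.38 when signals were taken to the log scale with a smaller offset of 16.

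Serpine2 was bright in effector memory cells, at log2 12.64, 11.87 and 12.36, against 6.39, 7.02 and 6.41 in naive cells. On 2 of the 3 naive arrays it lay below no signal (6.64), so no fold is given and the log2 difference depends on the scale: it was 5.68 (SE 0.358) as deposited, 7.76 with the offset of 16 and 4.84 when values below the 40th percentile were set to that percentile. The adjusted p under these scales was at most 0.000418.

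The clade B members rose by less. Serpinb6b lay at 12.17, 12.52 and 12.45 in effector memory cells and 8.70, 8.31 and 8.37 in naive cells, a 15.1-fold rise (SE 0.169 on the log2 scale). Serpinb9, the granzyme B inhibitor, lay at 12.03, 12.33 and 12.26 in effector memory cells, against 9.92, 9.70 and 9.73 in naive cells. Its rise was 5.37-fold (SE 0.118), from a naive level well above no signal. Serpinb6a lay at 11.75, 11.49 and 11.57 in effector memory cells, against 9.92, 9.58 and 9.58 in naive cells, a 3.75-fold rise (SE 0.166). For none of the 5 did an effector memory array overlap a naive array, which over all probe sets held for 19.2% on the higher side.

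**Figure D1:**
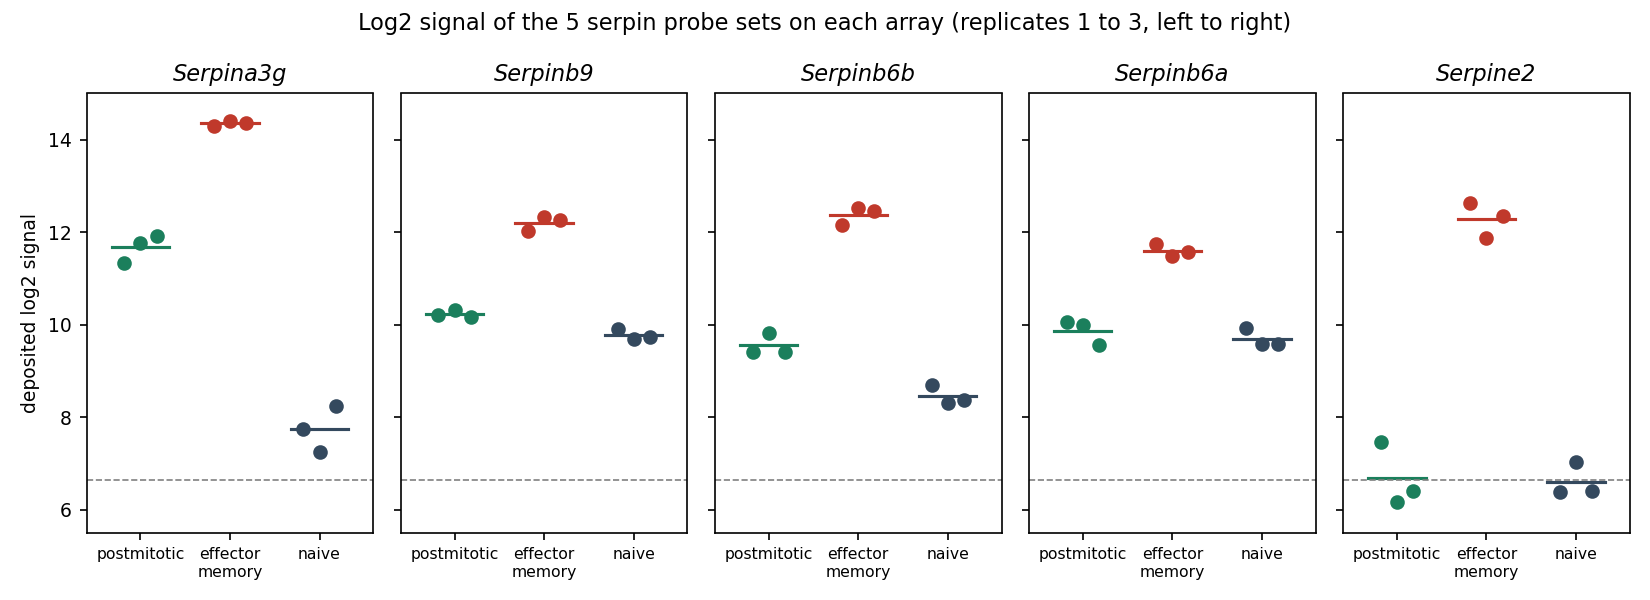
Deposited log2 signal (vertical axis) of the 5 serpin probe sets in postmitotic, effector memory and naive cells. Points are arrays, replicates 1 to 3 from left to right, bars are group means, and the dashed line marks no signal (6.64). Serpina3g stands in 3 separate steps, with postmitotic values of 11.34 to 11.92, while postmitotic Serpine2 lies with the naive arrays around no signal.

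Postmitotic cells carry the surface phenotype of naive cells but were recovered from diseased recipients, and the comparison asks which serpins differ between the 2 CD44-lo/CD62L-hi populations. Serpina3g rose by log2 3.92 and Serpinb6b by 1.09 in postmitotic cells (limma, adjusted p = 0.000223 and 0.00901). The other 3 members were not called, so 2 of 5 were higher in both recovered populations, as were 2.68% of all probe sets. Of all probe sets, 4.23% were called higher in this comparison, 3.96% lower and 8.19% in either direction.

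In postmitotic cells Serpina3g lay at 11.34, 11.76 and 11.92, against 7.75, 7.26 and 8.23 in naive cells. The groups did not overlap, and the means of 11.67 ± 0.30 in postmitotic and 7.75 ± 0.49 in naive cells (SD, n = 3 each) were 15.2-fold apart. With rank 7, it again stood near the top of all rises. Its highest postmitotic value was on replicate 3, the array with the Y-linked signal, and without that array and effector memory replicate 3 the log2 rise was 3.80 (adjusted p = 0.00914).

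Serpinb6b lay at 9.41, 9.83 and 9.41 in postmitotic cells and 8.70, 8.31 and 8.37 in naive cells, a 2.13-fold rise without overlap (SE 0.169). Without the 2 arrays with Y-linked signal the log2 rise was 1.16 and no longer called (adjusted p = 0.0586). Serpinb9 lay at 10.21, 10.32 and 10.16 in postmitotic cells, against 9.92, 9.70 and 9.73 in naive cells. Its groups did not overlap either, which holds for 13% of all probe sets on the higher side, but the difference of 0.45 (95% interval 0.18 to 0.72) just missed the threshold (adjusted p = 0.0549). Of 19 alternative fits, 5 made that call and 14 did not. It was made with 1 probe set per gene (adjusted p = 0.0398), with low values raised (0.0337) and with the offset of 16 (0.0395). A variance prior using trend and robust settings (0.00644) and leaving out naive replicate 1 (0.0497) also gave it. Without the 2 arrays with Y-linked signal the difference was 0.48 and not called (adjusted p = 0.153). Nor was it called with a block for replicate number (0.105) or with only the arrays compared (0.1225).

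For Serpinb6a, postmitotic values of 10.05, 9.99 and 9.55 overlapped naive values of 9.92, 9.58 and 9.58. The difference was 0.17 with a 95% interval of -0.21 to 0.55 (adjusted p = 0.608). It was 0.32 without postmitotic replicate 3, the array with the Y-linked signal, and 0.07 without replicate 1, and was called in neither case (adjusted p = 0.253 and 0.859). Without both arrays with Y-linked signal it was 0.32 (adjusted p = 0.339). Serpine2 lay at 7.46, 6.17 and 6.41 in postmitotic cells and 6.39, 7.02 and 6.41 in naive cells, around no signal in both. Its difference of 0.07 had an interval of -0.75 to 0.89 (adjusted p = 0.934), and its sign changed in 3 of the 9 fits that left out 1 array. Among those 9, the fits without an effector memory array could not alter the difference. Without both arrays with Y-linked signal the Serpine2 difference was 0.21 (adjusted p = 0.849).

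Against effector memory cells, all 5 serpins were lower in postmitotic cells (limma, adjusted p between 2.12e-05 and 0.000188). The log2 differences were -5.61 for Serpine2, -2.83 for Serpinb6b, -2.69 for Serpina3g, -1.98 for Serpinb9 and -1.74 for Serpinb6a. Postmitotic Serpine2 lay below no signal on 2 of 3 arrays, so its difference depends on the scale and was -7.42 with the offset of 16 and -4.83 with the 40th-percentile floor. No postmitotic array reached an effector memory array for any member. Over all probe sets, 9.68% were called lower in this comparison, 10.4% higher and 20% in either direction, and 18.1% were lower without overlap. Postmitotic Serpina3g was 6.44-fold below the effector memory level, Serpinb6b 7.11-fold, Serpinb9 3.94-fold and Serpinb6a 3.34-fold. This comparison and the preceding pair share arrays, so the 3 sets of differences are not independent.

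**Figure D2:**
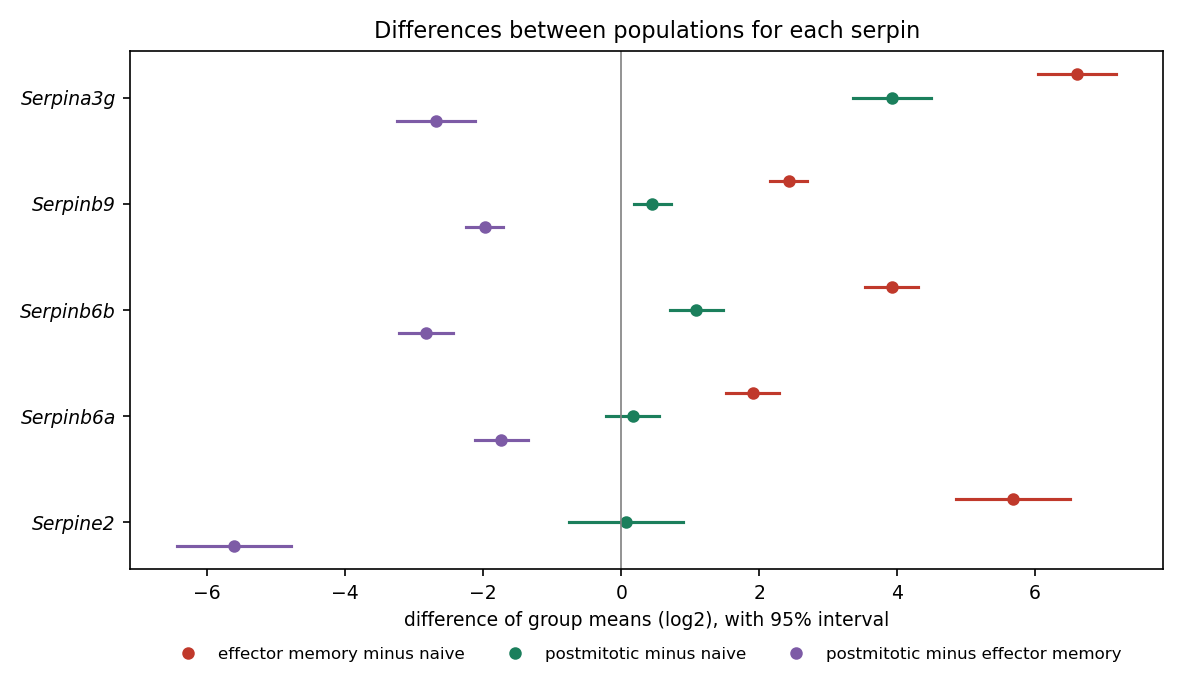
Differences of group means on the log2 scale (horizontal axis) for each serpin, as points with 95% intervals from limma. The intervals of postmitotic minus naive exclude 0 for Serpina3g (3.36 to 4.49), Serpinb6b and Serpinb9, and span 0 for Serpinb6a and Serpine2, while every interval against effector memory cells lies below 0.

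In relation to the effector memory rise, the postmitotic rise came to 59.4% for Serpina3g, 27.8% for Serpinb6b on the log2 scale, and the difference between these shares was not tested. No share is given for the other 3 members, whose postmitotic values were not called against naive cells. A contrast of the postmitotic mean with the midpoint of the effector memory and naive means put 4 of the 5 below the midpoint, where 5.21% of all probe sets were called on that side, 5.43% above and 10.6% on either. These were Serpine2 (-2.77, adjusted p = 0.0016), Serpinb6b (-0.87, adjusted p = 0.00892), Serpinb6a (-0.79, adjusted p = 0.0125) and Serpinb9 (-0.76, adjusted p = 0.00343). Serpina3g lay 0.62 above the midpoint, with a 95% interval of 0.13 to 1.11, and was not called (adjusted p = 0.113; 0.0446 without naive replicate 3). Without the 2 arrays with Y-linked signal Serpine2 alone of the 5 was called against the midpoint, while the differences were -0.72 for Serpinb9, -0.78 for Serpinb6b and -0.64 for Serpinb6a (adjusted p = 0.0558, 0.0984 and 0.0862). Serpina3g and Serpinb6b were called in all 3 comparisons, with postmitotic cells between effector memory and naive cells, as were 1.22% of all probe sets.

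**Figure D3:**
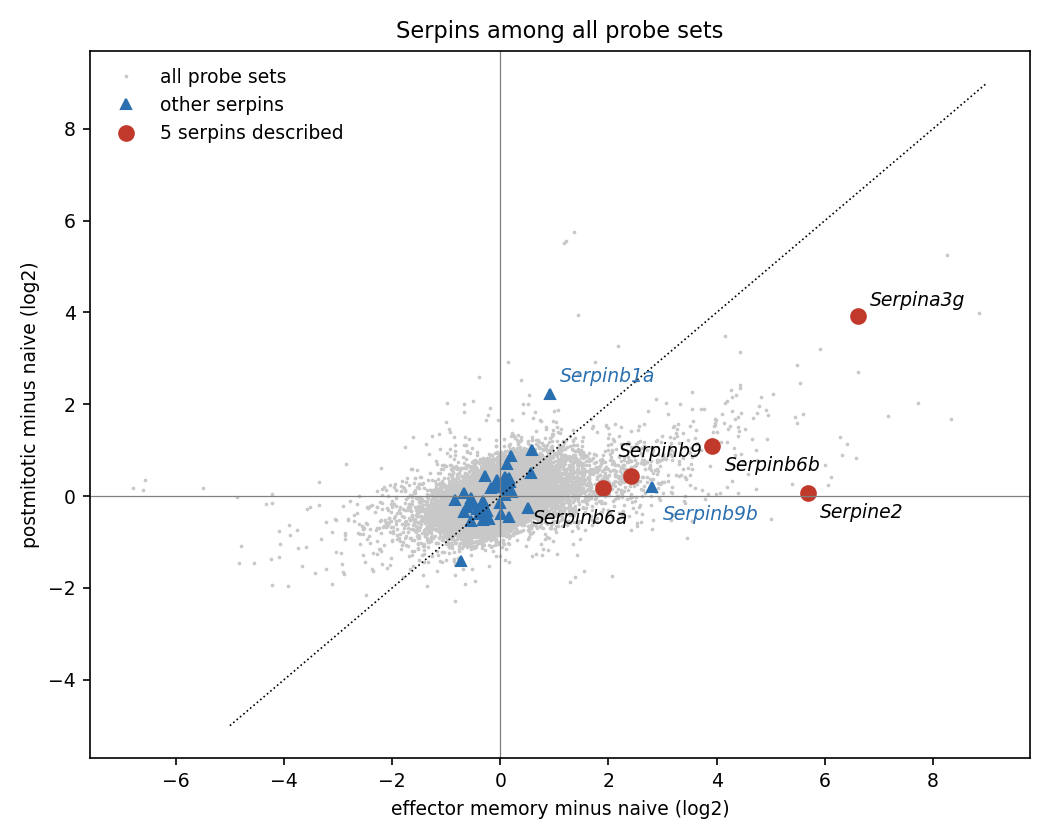
Postmitotic minus naive (vertical axis, log2) against effector memory minus naive (horizontal axis, log2) for all 22626 probe sets in grey, the 43 probe sets of other serpins as triangles and the 5 members as circles. Both axes share the naive arrays, and the dotted line marks equal differences. The members lie at 1.91 to 6.61 on the horizontal axis, below the dotted line. Among the other serpins Serpinb9b and Serpinb1a 1416318_at rose in effector memory cells, while Serpina12 1421092_at lies lowest on the vertical axis (-1.42).

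Of the 43 probe sets of other serpins, 2 rose and 3 fell in effector memory cells, 1 rose and 1 fell in postmitotic cells against naive cells, and 4 were higher and 2 lower in postmitotic than in effector memory cells. Over all probe sets the shares called were 12.4% higher and 13.6% lower in effector memory cells, 4.23% and 3.96% in postmitotic against naive cells, and 10.4% and 9.68% in postmitotic against effector memory cells. The median log2 differences of the other serpins were -0.02, 0.08 and 0.19 in the same order of comparisons, beside -0.05, -0.01 and 0.03 over all probe sets. Serpinb9b, a close relative of Serpinb9, rose in effector memory cells, at 8.66, 9.79 and 9.59, against 7.19, 6.79 and 5.64 in naive cells (adjusted p = 0.0032). In postmitotic cells it lay at 6.61, 6.21 and 7.43, near no signal and below effector memory cells (-2.60, adjusted p = 0.00604).

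Serpinb1a, an inhibitor of neutrophil elastase and related proteases, was highest in postmitotic cells. Its probe set 1416318_at lay at 8.75, 8.85 and 8.27 in postmitotic, 6.73, 7.49 and 7.72 in effector memory and 6.34, 6.48 and 6.39 in naive cells, the last below no signal. It rose by log2 2.22 in postmitotic cells against naive cells (adjusted p = 0.00311), and its difference from effector memory cells was 1.31 (adjusted p = 0.00807). The other probe set of the gene, 1448301_s_at, was not called in these comparisons (0.69 and 0.57, adjusted p = 0.292 and 0.33). In effector memory minus naive 1416318_at rose by 0.91 (adjusted p = 0.0323), while 1448301_s_at differed by 0.12 and was not called (adjusted p = 0.859). Serpini1, which encodes neuroserpin, an inhibitor of tissue plasminogen activator, fell in effector memory cells on both of its probe sets, by 0.84 and 0.67 (adjusted p = 0.00272 and 0.0256). In postmitotic cells Serpini1 was higher than in effector memory cells by 0.76 and 0.75. The remaining calls concerned probe sets near no signal: Serpinb9c 1422035_at (-0.68 in effector memory minus naive), Serpina12 1421092_at (-1.42 in postmitotic minus naive), and in postmitotic minus effector memory Serpinb1b (-0.78) and Serpinb5 1438856_x_at (0.72).

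Of the members, 3 lie in the clade B serpin cluster of chromosome 13. In the RefSeq order (GRCm38.p6, used here only for which genes are neighbours), Serpinb6b is followed by Serpinb9 and then by Serpinb9b. Among the measured genes of the cluster, these 3 had the largest rises in effector memory cells. Serpinb6a stands at the far end of the 17 genes and pseudogenes, of which 9 had a probe set naming them alone. Among the 6 measured genes of the cluster that are not members, Serpinb9b and Serpinb1a were called higher in effector memory cells, Serpinb1a on 1 of its 2 probe sets. Of the 6, 4 had group means under log2 8 in all populations. Serpina3g lies in the clade A cluster of chromosome 12, where none of the 12 other measured genes was called higher in either recovered population and all had group means under log2 8. Whether the probe sets of the members also bind transcripts of their close relatives was not tested.

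**Figure D4:**
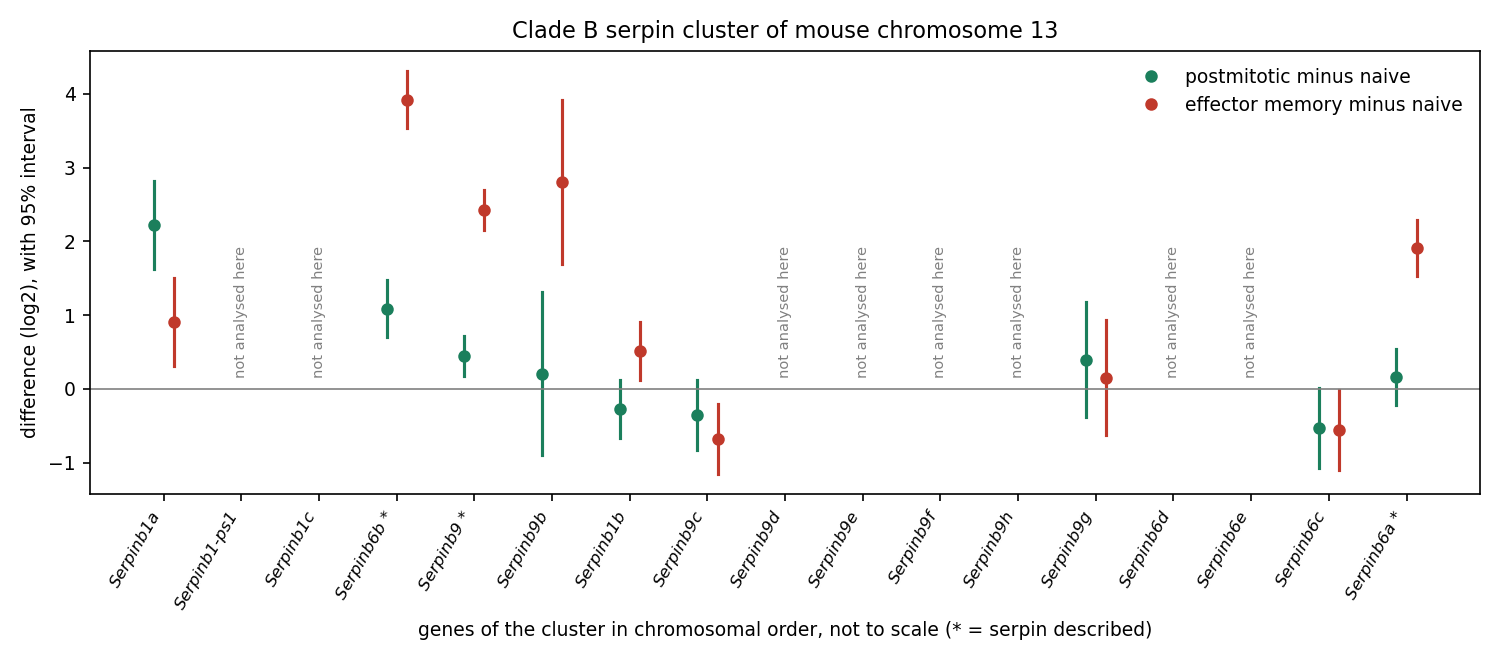
Log2 differences from naive cells (vertical axis, points with 95% intervals) for the clade B serpin genes of chromosome 13 in chromosomal order, by the brightest probe set of each gene. The 3 described members, marked with an asterisk, and Serpinb9b lie between 1.91 and 3.92 in effector memory cells, while Serpinb1a is higher in postmitotic cells (2.22) than in effector memory cells (0.91).

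Genes for proteases on which these serpins act were followed in the same comparisons. These and the later gene lists are read by the brightest probe set of each gene, while the shares beside them are of all probe sets. By the brightest probe set, 1800 of 13152 genes were called higher and 2019 lower in effector memory cells. In postmitotic against naive cells 650 were called higher and 594 lower. Of 11 genes for granule proteases and their partners, 7 rose in effector memory cells and 4 in postmitotic cells against naive cells, and none fell, beside 12.4% and 4.23% of all probe sets called higher. Gzmb, which encodes granzyme B, the target of Serpinb9, rose by log2 8.26 in effector memory cells and by 5.26 in postmitotic cells. Gzma, the target of Serpinb6b, rose by 7.17 in effector memory and 1.74 in postmitotic cells, Gzmk by 6.32 in effector memory and 0.89 in postmitotic cells, and the pore-forming protein gene Prf1 by 1.59 in effector memory cells. Beside the rise of Gzmb in postmitotic cells (adjusted p = 7.23e-05), that of its inhibitor Serpinb9 was 0.45 and not called. Levels of different probe sets are not compared here, so these differences do not give the ratio of inhibitor to protease.

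Among lysosomal cathepsins, targets of Serpina3g included, 4 of 14 rose and 3 fell in effector memory cells, and 3 rose and 2 fell in postmitotic cells. Over all probe sets 12.4% were called higher and 13.6% lower in effector memory cells, and 4.23% higher and 3.96% lower in postmitotic cells. Cathepsin B, Ctsb, rose by 1.54 and cathepsin D, Ctsd, by 1.08 in effector memory cells, while cathepsin L, Ctsl, fell by 2.46 there and by 0.62 in postmitotic cells. Cathepsin K, Ctsk, fell by 1.08 in effector memory and by 1.22 in postmitotic cells, to means below no signal. Ctsb differed by -0.24 in postmitotic minus naive (adjusted p = 0.241). Of 13 genes listed for the plasminogen and thrombin system, which hold targets of Serpine2 but also receptors, none rose and 2 fell in effector memory cells. F2rl1, a protease-activated receptor, fell by 2.55 and Plaur, the urokinase receptor, by 0.83 there, and Plaur rose by 0.62 in postmitotic cells. Plat, tissue plasminogen activator, was higher in postmitotic than in effector memory cells (1.13, adjusted p = 0.0403), with both means near no signal.

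**Figure D5:**
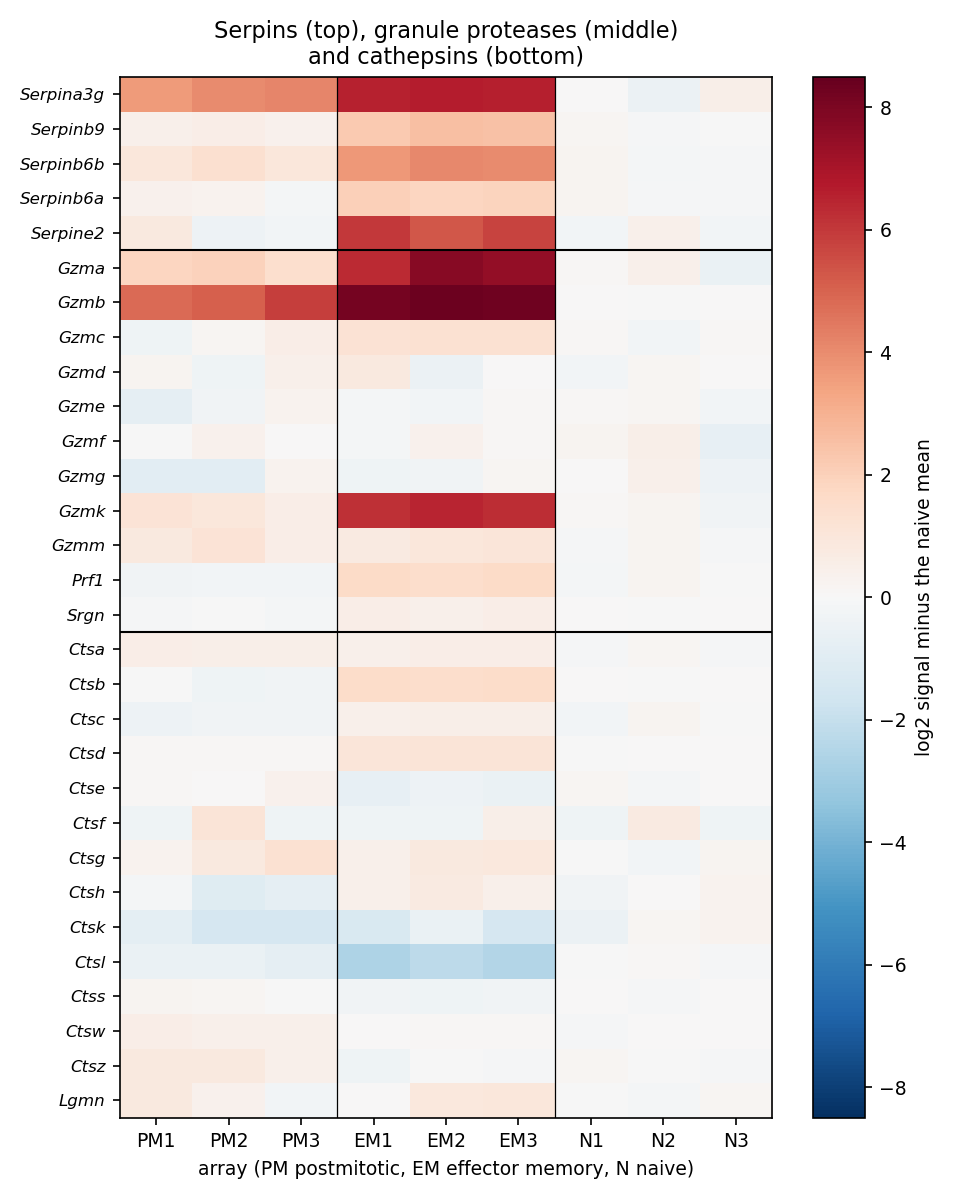
Log2 signal minus the naive mean (colour) on each array for the 5 serpins, 11 granule genes and 14 cathepsins, with postmitotic (PM), effector memory (EM) and naive (N) arrays from left to right. Serpina3g and Gzmb are raised on all postmitotic and effector memory arrays, and Ctsl is lowered in effector memory cells (-2.46).

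Of 25 other protease inhibitors measured, 3 rose and 3 fell in effector memory cells and 1 rose in postmitotic cells, shares near those of all probe sets (12.4% and 13.6% in effector memory cells, 4.23% higher in postmitotic cells). Cst7, which encodes the cathepsin inhibitor cystatin F, rose by 1.42 in effector memory and 0.60 in postmitotic cells, while the metalloproteinase inhibitor gene Timp2 fell by 2.64, Spint2, an inhibitor of serine proteases, by 1.25 and the tissue factor pathway inhibitor gene Tfpi by 0.61 in effector memory cells. Of 27 genes that respond to interferon gamma or NF-kappaB, 14 rose and none fell in postmitotic cells, and 8 rose and 4 fell in effector memory cells. The shares over all probe sets were 4.23% higher and 3.96% lower in postmitotic cells, and 12.4% higher and 13.6% lower in effector memory cells. Bcl3, a regulator of NF-kappaB, rose by 1.85 in postmitotic and 0.99 in effector memory cells, and the interferon regulatory factor gene Irf8 by 0.97 in postmitotic and 3.22 in effector memory cells. Iigp1, an interferon-inducible GTPase, rose by 2.02 in postmitotic cells but fell by 0.98 in effector memory cells, and the chemokine gene Cxcl10 rose by 1.62 in effector memory cells.

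Over the 9 arrays the pattern of Serpina3g was most like those of Gzmb (Pearson r = 0.995), Cd160 (0.994) and Cks2 (0.993), out of 2665 genes that varied by an SD of at least 0.5. For Serpinb9 the nearest were Ctla2b, S100a4 and Rpa2 (0.997, 0.997 and 0.996), for Serpinb6b Myo5a, Tnfrsf9 and Mthfs (0.997, 0.996 and 0.995) and for Serpinb6a AW112010, Tmbim1 and Lgalsl (0.996, 0.996 and 0.995). Serpine2 was most like Ptpn13 (0.998), Ide (0.995) and Rgs16 (0.994). Among the members themselves r was highest between Serpinb9 and Serpinb6b (0.994) and lowest between Serpina3g and Serpine2 (0.79). These 9 points fall into 3 groups and share their arrays, so r mostly restates the order of the group means.

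Serpins are also made by other blood cells, whose markers were read on the same arrays. Of 15 myeloid markers, 2 rose and 1 fell in effector memory cells, shares near or below the 12.4% and 13.6% of all probe sets, with Cd68 up by 1.76 and Ly86 by 1.14, and the summed signal of the list was 3355 to 7749 in effector memory, 1232 to 3438 in postmitotic and 2856 to 3652 in naive cells. Lyz2, the lysozyme of myeloid cells, lay between 7.41 and 8.15 on all arrays, and S100a9 lay at no more than 7.16. Of 9 dendritic cell and class II markers 3 rose and none fell in effector memory cells, a larger share than the 12.4% of all probe sets called higher. Without overlap 6 of the 9 were higher there, beside 19.2% of all probe sets, and their median log2 difference was 0.76. None was called in postmitotic minus naive. Their sums were 4077 to 4733 in effector memory, 1195 to 4195 in postmitotic and 1138 to 1507 in naive cells. Of 10 B and plasma cell markers, 2 rose (Jchain by 1.28 and Cd22 by 0.81) and Cd79b fell by 1.15 in effector memory cells, with sums of 927 to 1063 in effector memory, 717 to 1054 in postmitotic and 846 to 903 in naive cells. Of 10 mast cell markers, 1 fell and none rose in effector memory cells, and they summed to at most 610 on any array. NK cell markers (5, none called) summed to at most 705, with Klrb1c below no signal on all arrays. Of 10 erythroid and megakaryocytic markers, 1 fell in effector memory cells and 1 rose in postmitotic cells, beside 13.6% and 4.23% of all probe sets. None of 10 stromal and endothelial markers was called against naive cells. The part of such cells in the serpin values was not tested. In bulk RNA, more cells that make a serpin and more of its RNA per cell cannot be told apart.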

How the data were processed

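RNA of 9 pooled cell preparations was hybridised to Affymetrix mouse arrays. The values used are the authors' deposited log2 signals: per the deposited readme, trimmed means of probe differences were quantile-normalized to naive replicate 2, and an offset of 50 and a floor were applied before the log. Of 22690 probe sets, 64 controls were left out. Symbols were updated through Entrez identifiers to RefSeq (20752 of 21259 single-gene probe sets matched), and 826 probe sets naming several genes and 541 naming none gave no gene name. limma 3.58.1 in R 4.3.3 was fitted to 22626 probe sets over all 9 arrays with a mean per group. Its p-values were adjusted by Benjamini-Hochberg over all probe sets and called under 0.05, and the procedure was tested on simulated data. Named were every member, each other serpin called in a pairwise comparison, up to 4 called genes per list with the largest differences from naive cells (brightest probe set per gene), and the 3 genes most like each member. Markers of other cell types were named after their values were seen. Members and lists were chosen with earlier results of these data known. The labels call the arrays biological replicates, and the number of arrays limits the precision.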

Additional observations from a re-analysis of the deposited data

How the results depend on the processing

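For the 5 serpins, 20 log2 differences were recomputed to give 375 alternative values. Of these, 362 kept direction and side of the threshold, 4 lost the call, 6 gained it and 3 reversed. Several fits could not change a log2 difference by construction, such as another variance prior or leaving out an array of a group not compared. Another used a second deposited copy of the same values (largest difference 5e-09). The 362 are therefore not independent checks. The reversals all concern Serpine2 in postmitotic minus naive, where both groups lie around no signal: -0.04 without naive replicate 1, -0.03 without naive replicate 3 and -0.32 without postmitotic replicate 1, in a range of -0.32 to 0.33 with 1 array left out. The cause was not tested. All 5 serpins were called in effector memory minus naive and in postmitotic minus effector memory under each alternative run. In postmitotic minus naive 2 were called, and between 2 and 3 when 1 array was left out. Without effector memory replicate 3 and postmitotic replicate 3, the 2 arrays with Y-linked signal, 1 was called there and 1 against the midpoint (4 with all arrays, 4 to 5 with 1 array left out), with fewer samples in the test. Over all probe sets, postmitotic minus naive gave 1854 calls, but 3250 with a trend and robust variance prior, 1164 with the replicate block, 474 using only the arrays compared, 293 without the 2 arrays and 859 to 1741 with 1 array left out. Calls in postmitotic minus effector memory numbered 4536, against 2507 without the 2 arrays and 3136 to 4867 with 1 left out. The midpoint contrast gave 2407 calls, 566 without the 2 arrays and 1178 to 2460 with 1 left out. Same-numbered arrays correlated at 0.00922 to 0.0707 in their deviations, all under the 0.1 set for pairing, although the same-numbered array was the closest in 16 of 18 cases, a hint from the data and not the design, and the block changed no call of a serpin.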
